A study of Mus musculus with 2 samples.

Results

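The mitosis genes described here are 10 genes that drive or mark the passage of a cell through mitosis: Mki67, Top2a, Ccna2, Ccnb1, Ccnb2, Cdk1, Plk1, Bub1, Aurka and Cdc20. They were taken as every probe set whose platform annotation names 1 of these genes alone, which gave 14 probe sets for 9 of the 10 genes, among 8251 genes named by a probe set. The annotation used here names no probe set for Ccnb1, so its transcript was not analysed. RNA abundance was measured in mouse spleen on 2 oligonucleotide arrays, array 1 and array 2. Both started from purchased spleen total RNA of 1 catalogue number and form the only group. No genotype, treatment, strain, age or number of animals is given in the sources used here. Whether the arrays shared a tube of RNA or a labelling reaction is not given either, so the spread between them may be technical only. Nothing was compared with a control, and no p-value was computed.

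Cells enter mitosis when the kinase Cdk1 is switched on by the cyclins A and B. Polo-like and aurora kinases then build the spindle, a checkpoint built around Bub1 delays the separation of chromosomes until all are attached, and Cdc20 directs the anaphase-promoting complex to destroy the cyclins. Transcripts of these genes are made mainly from late S phase to mitosis, so in a tissue they are known as marks of dividing cells. In the mouse spleen such cells include red cell precursors, granulocyte precursors and activated lymphocytes.

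Promoters of mitotic genes are known for CCAAT boxes, bound by the factor NF-Y, and for the cell cycle homology region (CHR), through which repressor complexes keep these genes silent outside the late cell cycle. RefSeq promoters (GRCm38.p6) were found for 9 of the 10 members, all but Ccna2. Below, 110 bases that end 1 base before the annotated start are printed on the gene's strand for 5 members, chosen because they show the spacing and direction of these elements. They include Bub1, which gave a far weaker signal on the arrays than the others. Capitals mark CCAAT, its reverse complement ATTGG, and the CHR form TTTGAA.
Ccnb2, chr9:70421555-70421664, minus strand: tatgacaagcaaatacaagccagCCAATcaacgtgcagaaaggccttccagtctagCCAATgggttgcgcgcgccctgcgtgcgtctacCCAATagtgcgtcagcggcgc
Cdk1, chr10:69352913-69353022, minus strand: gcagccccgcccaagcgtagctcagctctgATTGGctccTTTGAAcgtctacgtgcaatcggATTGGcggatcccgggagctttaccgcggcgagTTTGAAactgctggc
Cdc20, chr4:118437344-118437453, minus strand: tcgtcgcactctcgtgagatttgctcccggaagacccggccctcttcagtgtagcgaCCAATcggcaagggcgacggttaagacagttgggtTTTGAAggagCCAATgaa
Aurka, chr2:172370571-172370680, minus strand: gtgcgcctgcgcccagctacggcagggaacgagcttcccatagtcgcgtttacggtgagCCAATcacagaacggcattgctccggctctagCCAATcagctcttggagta
Bub1, chr2:127831860-127831969, minus strand: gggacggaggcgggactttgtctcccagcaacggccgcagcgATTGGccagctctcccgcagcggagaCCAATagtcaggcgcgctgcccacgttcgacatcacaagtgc

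Within the 250 bases before the start, CCAAT was found on either strand in 9 of 9 member promoters, against 33.8% of 32851 mouse promoters and 34.6% of the 8408 promoters of genes on the arrays. At least 2 copies were found in 8 of 9, against 10.1% of all promoters, and Plk1 held 1 copy. TTTGAA or the other CHR form searched, TTCGAA, on either strand, was found in 5 of 9, against 17.1% of all promoters. In the full 300 bases, which add 50 bases after the start, it was found in 8 of 9, against 19.2%. The wider window was added after the sequences were seen. It added Plk1, Aurka and Bub1, whose copies lie 31, 33 and 15 bases after the start, and Ccnb1 held none in it. The motifs do not overlap each other in the printed stretches.

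The copies of CCAAT were also regularly spaced in several members. In Ccnb2 the 3 copies start 87, 54 and 21 bases before the start, each 33 bases from the next. In Cdk1, Aurka and Ccnb1 a pair of copies in 1 direction starts 32 bases apart, reversed in Cdk1 and as written in Aurka and Ccnb1. A pair of copies of 1 direction whose starts lie 31 to 34 bases apart was present in 4 of 9 member promoters and in 0.813% of all promoters. This spacing was picked after the sequences were seen, so its share is a description. The arrays measured transcripts and hold no information on what binds these sites.

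**Figure D1:**
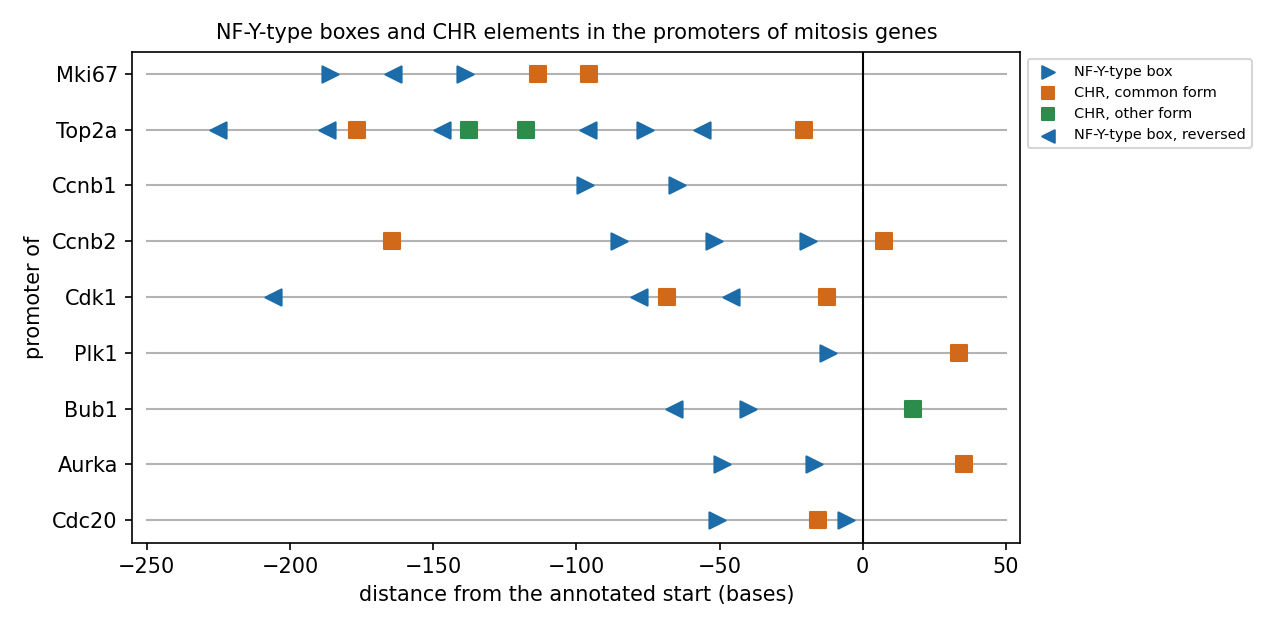
Positions of NF-Y-type boxes (CCAAT, triangles pointing right, or left where reversed) and CHR elements (TTTGAA, orange squares, or TTCGAA, green squares, on either strand) in 9 promoters, as the distance in bases from the annotated start (vertical line), from 250 bases before to 50 bases after it. All 9 promoters hold a box before the start, and the 3 boxes of Ccnb2 are evenly spaced. The elements of Plk1, Aurka and Bub1 lie after the start. Ccnb2 holds TTTGAA both 167 bases before and 5 bases after the start.

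The deposited values are signal intensities on a linear scale, 1 for each of 12488 probe sets per array, with a median of 227.05 on array 1 and 227 on array 2 once control probe sets are left out. A probe set is called bright here when both of its values passed the 60th percentile of their array, a cutoff of 346.32 for array 1 and 342.22 for array 2. The background was taken from 15 bacterial control probe sets, those named for Dap, Lys, Phe, Thr or Trp, whose targets are foreign to the mouse. Other control probe sets were not used for it. The highest of the 15, called the highest bacterial control below, gave 95 on array 1 and 76.2 on array 2. Intensity depends on the probe sequence as well as on the transcript, so the members are not ranked against each other as amounts of RNA. The number of arrays limits the precision. In total RNA of a whole organ, fewer cells of a type and less RNA per cell cannot be told apart.

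Mitotic transcripts were detected in spleen RNA. Of the 9 members measured, 8 were bright, against 45.2% of all 8251 named genes. All 9 exceeded the highest of the 15 bacterial controls used on each array, as did 73.9% of all named genes. The median member stood at the 90.7th percentile of array 1 and the 89.0th of array 2, where the median named gene stood at the 57.8th on both. Aurka was the bright member nearest to the cutoff, and Bub1 was the member that was not bright.

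The cyclins and their kinase came first in the order of roles. Ccnb2, a B-type cyclin that activates Cdk1, gave 4072.7 on array 1 and 3425.9 on array 2, a mean of 3749 ± 457 (SD, n = 2 arrays here and below). Ccna2, the A-type cyclin of S phase and entry into mitosis, gave 1989.2 and 1683.7, a mean of 1836 ± 216. Cdk1, the kinase that both cyclins switch on, gave 1614.9 and 1354.7, a mean of 1485 ± 184. All 3 were lower on array 2: the ratio of array 2 to array 1 was 0.841 for Ccnb2, 0.846 for Ccna2 and 0.839 for Cdk1. Differences as large or larger were seen for 19.8% to 22.0% of bright genes. Whether the 3 genes move together was not tested. Each has a single probe set. Their signals were between 17.0 and 45.0 times the highest bacterial control of the array.

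Among the mitotic kinases, Plk1, which promotes entry into mitosis and the build-up of spindle poles, had 3 probe sets, all bright. The one with the highest mean signal, with the suffix _g_at, gave 954.7 on array 1 and 711.8 on array 2, a mean of 833 ± 172. The other two carry the suffix _f_at, which marks probes that read a family of similar sequences. They gave 558 and 512 in one case and 362.3 and 442.7 in the other. The probe sets did not move together between the arrays: 2 were lower on array 2, and the third was higher. Aurka, the aurora kinase of spindle poles, has 1 probe set, which gave 441.7 and 419.6, a mean of 431 ± 15.6. That is 1.28 times the cutoff on array 1 and 1.23 times on array 2, and its signal lay at the 65.9th and 65.1st percentile.

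Bub1, a kinase of the spindle checkpoint, gave the weakest signals. Its strongest probe set gave 158.7 on array 1 and 198.3 on array 2, a mean of 179 ± 28.0, at the 41.9th and 47.1st percentile. This was 1.67 and 2.60 times the highest bacterial control. The other two probe sets of Bub1 gave 13.3 and 28.4, and 9 and 10.5, and so lay below that control on both arrays. A signal at this level does not show that the transcript is absent. Cdc20, the activator of the anaphase-promoting complex that this checkpoint restrains, gave 1537.7 and 1522.6, a mean of 1530.2 ± 10.7. The checkpoint kinase and its target stood on opposite sides of the cutoff, each on its own probe sets.

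The remaining members are chromosome proteins of dividing cells. Mki67, which encodes the proliferation marker Ki-67 that coats mitotic chromosomes, gave 2657.7 on array 1 and 2659 on array 2, a mean of 2658 ± 0.919. A second probe set of Mki67, with the suffix _r_at for relaxed probe selection, gave 122.7 and 124.9 and was not bright. The brighter one exceeded it 21.7-fold on array 1 and 21.3-fold on array 2, so the arrays matched closely within each probe set while the probe sets of 1 gene differed widely. Top2a, the topoisomerase that untangles sister chromosomes, gave 767.9 and 927.2, a mean of 848 ± 113. It was the bright member with the largest gain on array 2 among the probe sets used for the genes.

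**Figure D2:**
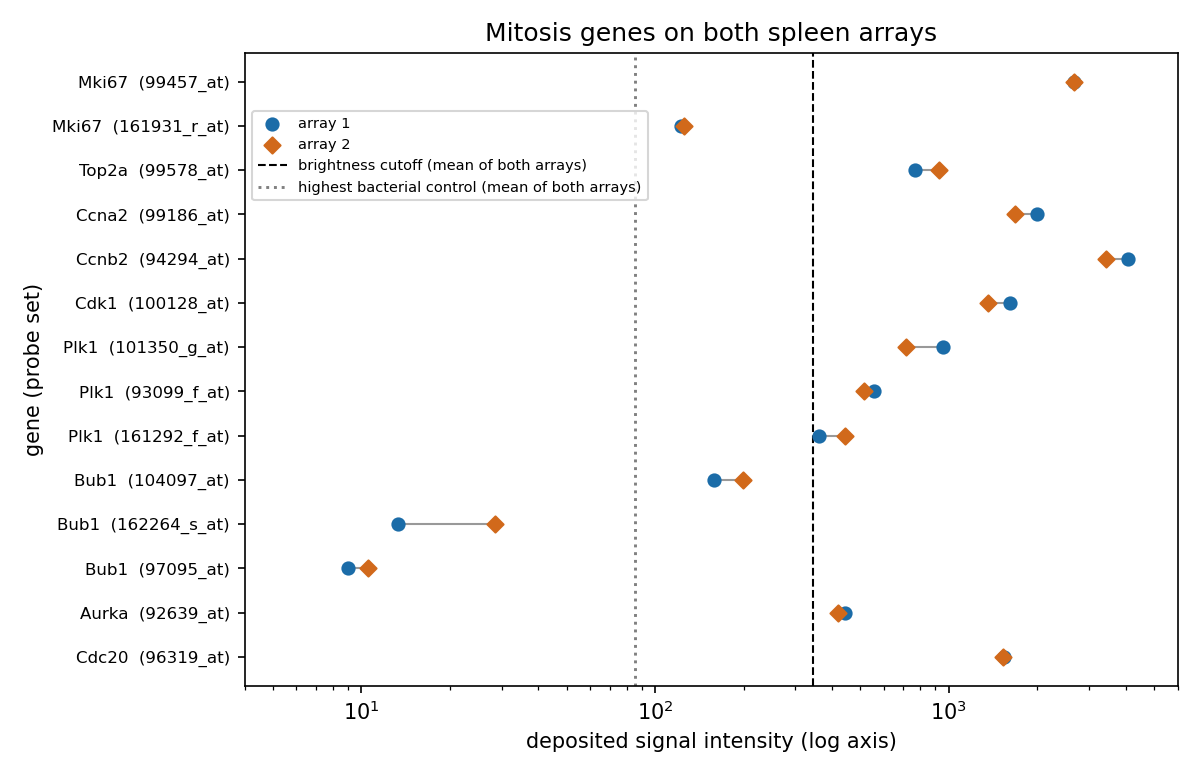
Deposited signal intensity (log axis) of all 14 probe sets of the 9 measured members, with array 1 as circles and array 2 as diamonds. The dashed line is the brightness cutoff and the dotted line the highest bacterial control, each averaged over both arrays. Bub1 lies left of the cutoff with all of its probe sets, and the probe sets of Mki67 and Bub1 differ from each other far more than the arrays do.

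The arrays differed little for these genes, measured as the log2 signal on array 2 minus that on array 1, centred on the median of bright probe sets. Over the 8 bright members the median difference was -0.16, against -0.00023 over all 3731 bright genes, and it ran from -0.42 for Plk1 to 0.27 for Top2a. The pooled SD was 0.166 for the 8 members and 0.152 for all bright genes. None of the 8 differed by more than 2-fold, as did 0.107% of all bright genes. Lower on array 2 were 6 of the 8, against 50.1% of all bright genes. The median moved to -0.07 without probe sets with suffixes, to -0.08 when probe sets of a gene were averaged and to -0.07 when every member above the bacterial controls was counted. It moved to -0.25 when brightness was set at the 75th percentile.

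All 8 differences lay inside the range of the other bright genes. A difference as large as that of Plk1 or larger was seen for 6.06% of bright genes, and the dimmest bright probe set of Plk1 differed by 0.29 in the other direction. For Top2a the share was 17.2%, for Cdk1 19.8%, for Ccnb2 20.5% and for Ccna2 22.0%. Aurka differed by -0.07, Cdc20 by -0.01 and Mki67 by 0.0024, and 66.9%, 93.4% and 99.0% of bright genes differed by as much or more. Bub1 differed by 0.32, among dim probe sets, the second lowest of 4 signal classes, for which the pooled SD was 0.522.

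**Figure D3:**
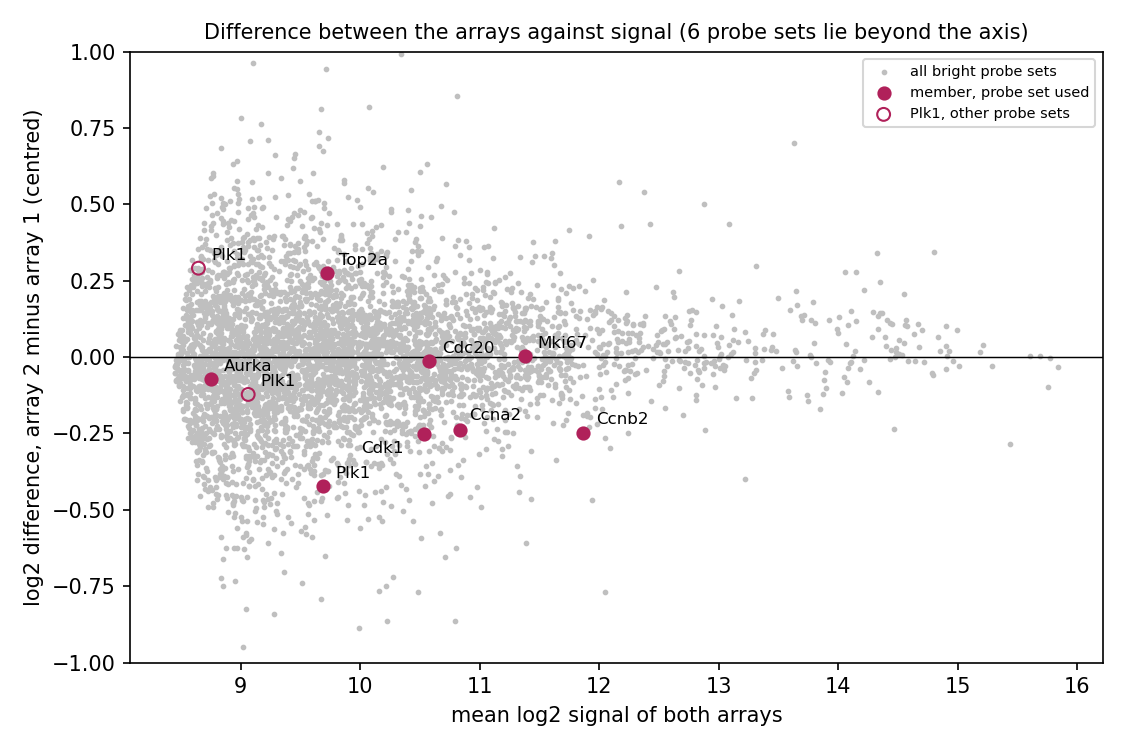
Log2 difference between the arrays (array 2 minus array 1, centred) against the mean log2 signal, with all bright probe sets in grey and those of the bright members in colour, filled for the probe set used and open for the other probe sets of Plk1. Ccna2, Ccnb2 and Cdk1 lie together near -0.25, Mki67 and Cdc20 lie near 0, and all members lie within the cloud of bright probe sets.

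Other genes of mitosis were examined in 7 lists by role, with 90 genes, of which 68 were measured. Of these 43 were bright, 63.2%, against the 45.2% of all named genes. Above the highest bacterial control on each array were 63, or 92.6%, against 73.9% of all named genes. When brightness was set at the 75th percentile, 25 passed, 36.8%, against 28.5% of all named genes. Their median stood at the 68.8th percentile of array 1 and the 68.6th of array 2. The 43 bright genes had a median log2 difference of -0.009, with 21 higher and 22 lower on array 2. Some genes of these lists, such as those of the anaphase-promoting complex and NF-Y, are also used outside mitosis. The shares therefore do not mark dividing cells alone.

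Regulators of Cdk1 were bright in 4 of 8 cases, or 50%, near the share of all named genes. The phosphatase Cdc25a, which activates cyclin-dependent kinases, gave 527.2 on array 1 and 499.5 on array 2, and the Cdk-binding Cks1b, Cks2 and the F-box cyclin Ccnf were bright too. Cdc25c, which removes the inhibitory phosphates of Cdk1 at entry into mitosis, gave 408.7 and 254.7, above the cutoff on array 1 only. Wee1, the kinase that adds such phosphates, gave 141.3 and 131.9 and was not bright. Fam64a and the germ-line cyclin Ccna1 were not bright either, at 152 ± 41.6 and 15.4 ± 11.9. Ccna1 lay below the highest bacterial control, whereas its paralogue Ccna2 was bright.

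Genes of the spindle checkpoint and the kinetochore, the site where chromosomes attach to the spindle, were bright in 4 of 9 cases, or 44.4%, near the 45.2% of all named genes. The checkpoint proteins Bub3 and Mad2l1 gave 2213 ± 106 and 811 ± 50.8, and the centromere proteins Cenpa and Cenpb were bright as well. Bub3 is the binding partner of Bub1, and unlike Bub1 it was bright on its probe set of highest mean. Another probe set of Bub3, at a mean log2 signal of 5.39, was not bright. The checkpoint kinase Ttk gave 148.1 on array 1 and 246.5 on array 2. Zw10, Cenpc1, Cenpe and Ndc80 were not bright either, and Cenpe passed the highest bacterial control on array 2 only and Ndc80 on neither array.

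The chromosomal passenger complex and the mitotic kinases were bright in 7 of 9 cases, 77.8% against 45.2% of all named genes. The 7 include Plk2 and Plk3. Plk3 gave 4852 on array 1 and 3943.5 on array 2, on a probe set with the suffix _r_at. Aurkb, the aurora kinase of centromeres and the midbody, gave 491.1 on array 1 and 689.7 on array 2. Its partner Birc5, also known as survivin, gave 593.6 and 821.9, and their scaffold Incenp gave 667.2 and 655.5. Of the 7 bright genes of this list 4 were higher on array 2 and 3 were lower. Aurkb and Birc5 had the largest gains, 0.49 and 0.47 on the log2 scale. Whether genes move together was not tested, as 2 arrays give 1 difference per gene. Nek2, a kinase of centrosome separation, gave 544.4 and 290.4 and fell below the cutoff on array 2. Haspin, a histone H3 kinase, gave 117 ± 9.33 and was not bright.

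Spindle motors and genes of spindle assembly and cytokinesis were bright in 6 of 13 cases, close to the share of all named genes. The motor Kif11, which pushes spindle poles apart, gave 512.1 on array 1 and 419.6 on array 2. Kif20a, a motor of cytokinesis, gave 164.6 and 184.2 and was not bright. Kif22, a motor that moves chromosome arms, gave 1709.7 and 1770.8. The probe set of Kif20a carries the suffix _f_at and that of Kif22 the suffix _r_at.

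Genes of the anaphase-promoting complex, the ubiquitin-conjugating enzymes Ube2c and Ube2s and the securin Pttg1 were bright in 8 of 10 cases. That is 80%, against 45.2% of all named genes. The subunits Anapc1, Anapc2 and Anapc4 gave 769 ± 29.4, 1148 ± 13.6 and 557 ± 153. Another probe set of Anapc1, at a mean log2 signal of 6.63, was not bright. The genes that were not bright were the subunit Cdc23, at 207 ± 25.0, and Ube2c, at 284 ± 48.9. Ube2c encodes a ubiquitin-conjugating enzyme that works with the complex, and its probe set carries the suffix _r_at. Many of these subunits are also used outside mitosis, so their signal does not mark dividing cells alone. Genes of condensin, cohesin and chromosome structure were bright in 7 of 10 cases, 70% against 45.2% of all named genes. The condensin subunits Smc2 and Smc4 gave 854 ± 130 and 2569 ± 208. The cohesin subunit Smc3, at 341 ± 8.34, passed the cutoff on array 2 only, and Ncaph and Stag1 were not bright.

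Transcription factors of mitotic genes were bright in 7 of 9 cases, 77.8% against 45.2% of all named genes. Foxm1, which drives late cell cycle genes, gave 763.4 on array 1 and 1139.1 on array 2. Lin9, a subunit of the complex that acts through the CHR, gave 362.3 and 343, just above the cutoff. Its partner Mybl2 gave 336.8 and 328.6, just below the cutoff, and the pocket protein Rbl2 gave 169 ± 18.9. The genes of NF-Y, the factor of the CCAAT boxes printed above, were bright in all 3 measured cases, Nfya at 674 ± 15.4, Nfyb at 510 ± 11.5 and Nfyc at 1132 ± 23.1. They were named after their values were seen, and NF-Y also acts at many promoters outside the cell cycle.

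**Figure D4:**
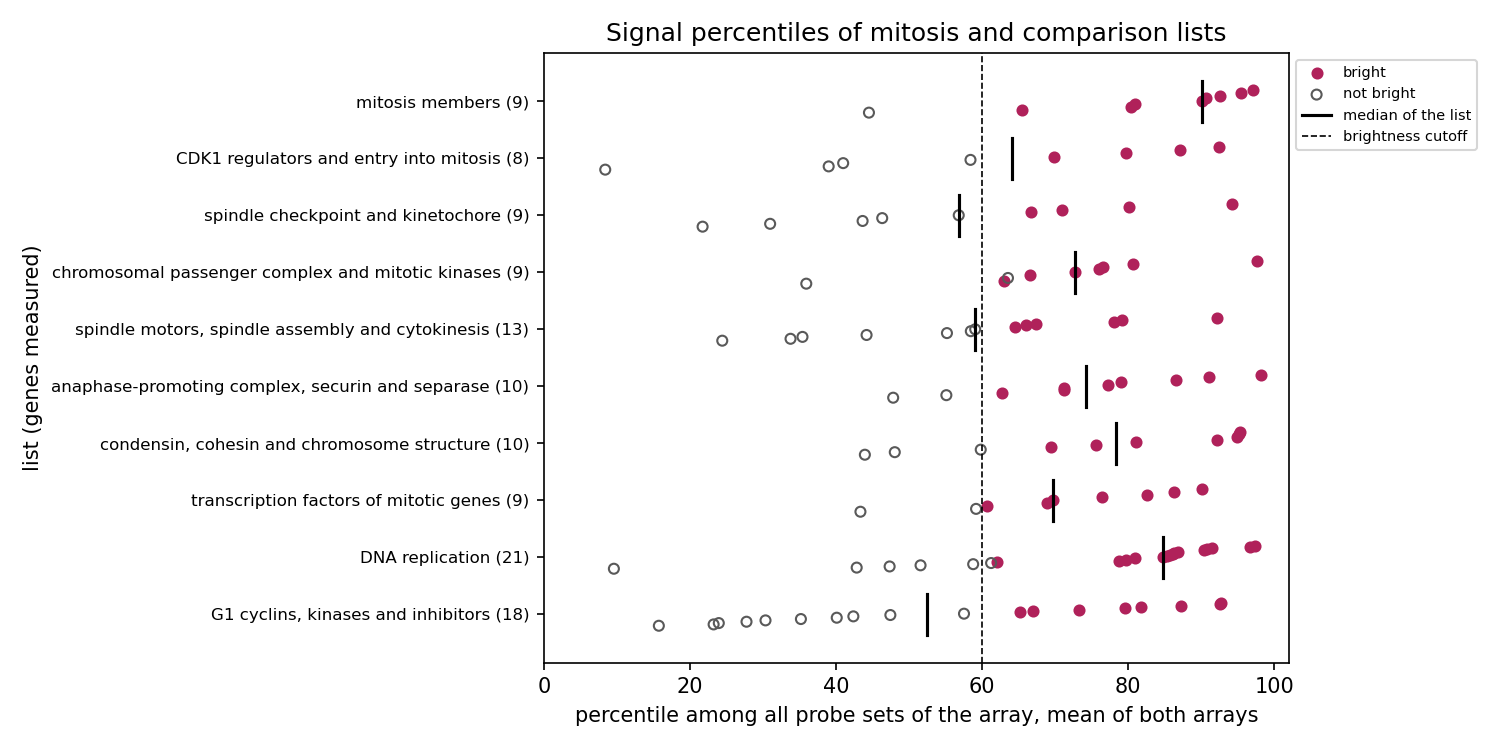
Signal percentile among all probe sets of the array (mean of both arrays) for each measured gene of the mitosis members, the 7 other mitosis lists and the 2 comparison lists, with bright genes filled, others open and the list's median as a vertical bar. The members' median lies near the 90th percentile, DNA replication follows near the 85th, and the G1 list has its median below the brightness cutoff at the 60th.

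Genes of other cell cycle stages were set beside the members. DNA replication genes were bright in 15 of 21 cases, 71.4% against 45.2% of all named genes, with a median at the 85.6th percentile of array 1 and the 83.7th of array 2. Among them the replicative helicase subunits Mcm2 and Mcm3 gave 1095 ± 26.2 and 1167 ± 29.6. Genes of G1 cyclins, kinases and inhibitors were bright in 8 of 18 cases, with medians at the 52.1st and 52.8th percentile. That is 44.4%, near the share of all named genes, and so no result about this list. Of the D-type cyclins, Ccnd1 gave 427 ± 65.8 and was bright, and Ccnd2 gave 203 ± 12.7 and was not. These are counts without a test, and genes chosen as marks of division differ from the others in more than their stage.

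Markers of the tissue and of lineages that divide in it were checked, with the 45.2% of all named genes that were bright as the background. Defining genes of spleen cell types were present: B cell genes were bright in 6 of 7 cases, T cell genes in 7 of 7 and macrophage genes in 6 of 7. Markers of red cell precursors were bright in 8 of 8 cases, among them Klf1 at 3177 ± 138 and the transferrin receptor Tfrc at 3396 ± 345. Markers of granulocyte precursors were bright in 6 of 7, with the elastase Elane at 1101 ± 48.1. Of the markers of germinal centre B cells 2 of 4 were bright, Bcl6 and S1pr2, and of megakaryocytes 3 of 5, shares of 50% and 60% that are near this background. Of 7 germ cell genes, Prm1, Prm2, Tnp1, Tnp2, Ddx4, Sycp3 and Zp3, 1 was bright, Tnp1, on a probe set with the suffix _r_at. Acinar cells of the neighbouring pancreas had 5 of 5 bright, with a median at the 98.9th percentile of array 1, against the 96.0th for B cells, the 90.3rd for macrophages and the 76.1st for T cells. The digestive enzymes Ctrb1 and Prss2 gave 24153 ± 1240 and 11435 ± 101, on probe sets with the suffixes _r_at and _f_at. Cela1, Cel and Clps, on probe sets without such suffixes, gave 8880 ± 57.6, 8125 ± 179 and 4949 ± 44.1. Transcripts typical of another organ were thus among the strong signals of this RNA. How much of the mitotic signal came from each of these cell types was not tested.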

How the data were processed

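The authors deposited 1 signal intensity per probe set and array. The mean, trimmed by 2% at either end, was 499.9 on both arrays, so they had been scaled to a common target. The software and detection calls are not given in the sources used here. Of 12422 probe sets other than controls, 10833 named 1 gene, 396 several and 1193 none. Of 8251 genes 8237 were found in RefSeq (GRCm38.p6). Intensities were floored at the 20th percentile of the array and put on the log2 scale. A gene with several single-gene probe sets took the one of highest mean. Members and lists were chosen with earlier results of these data known. Named were all members, the first 3 measured genes of each mitosis list, those not bright where 5 or fewer, and the first 2 of each comparison list. Some further genes were named after their values were seen. With 1 group no test was run. Code was tested on simulated data. Alternatives changed the cutoff, floor, normalization, probe set choice or number of arrays. Python 3.11.15, numpy 2.4.6, pandas 2.3.3 and statsmodels 0.14.6 were used.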

Additional observations from a re-analysis of the deposited data

How the results depend on the processing

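Of the 9 measured members 8 were bright, and under the 8 alternatives run for this count 7 to 9 were. The lowest count was 7 of 9 with the cutoff at the 75th percentile, where Aurka fell below it, and 7 of 8 without suffixed probe sets, where Plk1 had none. The count was 8 on each array alone. The 43 bright genes of the other mitosis lists became 25 with the cutoff at the 75th percentile and 46 on each array alone. With either array alone 47.6% of named genes were bright, also more than in the main setting. The members' median difference stayed negative in the 11 alternatives run for it. Dropping the floor, which lies below every bright probe set, could not change this median. Using probe sets that name several genes left it at -0.16 as well, so the unbroken sign does not measure robustness. The difference of Mki67, 0.0024, became -0.015 with quantile normalization and -0.013 with loess. Among the members' single values, 52 of 54 differences moved by less than the pooled SD of bright genes, these shifts of Mki67 included. Of 45 levels 39 moved by less than the gene's own SD over the arrays, but many could not have done otherwise. A level from 1 array always lies within that SD, and dropping the floor or averaging a single probe set changes nothing. The 6 that moved more were Mki67, Plk1 and Bub1 with the mean over probe sets, and Mki67, Aurka and Cdc20 with 16 added before log2. Some of the 54 differences were fixed likewise, so neither count measures robustness. With the mean over probe sets the difference of Plk1 became -0.08 and that of Bub1 0.11. No paired analysis was possible because there is 1 group. Signals near the bacterial background, such as Bub1's, carry little information on level.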

Other observations

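Inhibitors of cyclin-dependent kinases, which hold cells out of division, were bright in 3 of 7 measured cases, 42.9%, near the 45.2% of all named genes. They were singled out after their values were seen. Cdkn2c and Cdkn2d, which encode the Cdk4 and Cdk6 inhibitors p18 and p19, gave 792 ± 3.39 and 1205 ± 48.6 and were bright (SD, n = 2 arrays). Cdkn1a, which encodes p21, was bright as well at 595 ± 27.0. Cdkn2b and Cdkn1b gave 29.2 ± 2.05 and 112 ± 2.83 and were not bright. Cdkn1c gave 109.5 on array 1 and 64.2 on array 2, below the highest bacterial control on array 2, and was not bright. Cdkn2a, a gene known for its rise in ageing cells, gave 45.6 on array 1 and 107.1 on array 2, and exceeded the highest bacterial control on array 2 only.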
